A study of Mus musculus with 4 samples.

Results

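Members of the p38 stress kinase cascade and of the control of cytokine mRNA decay were examined in LPS-stimulated mouse macrophages with and without galectin-1. They are the rows of the deposited tables whose symbols are Map2k3, Map2k6, Mapk14, Mapkapk2, Mapkapk3, Zfp36, Zfp36l1, Zfp36l2, Zc3h12a and Zc3h12c, 10 of 23284 gene symbols, and all 10 were found. The members were chosen by symbol, with earlier results of these libraries in view: the measured values known then were the FPKM and the differences between galectin-1 and vehicle, among them that of Zfp36. So the fitted differences and adjusted p-values below describe these libraries and are no independent evidence for the group.

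The cells were bone marrow-derived macrophages (BMDMs), a primary culture grown from the marrow of wild type mice, plated at 1000000 per well. The treated cultures received recombinant mouse galectin-1, a lectin that binds galactose-containing glycans, for 24 h, and the control cultures received phosphate-buffered saline (PBS), called vehicle here, for 24 h. Cultures of both groups were first exposed to lipopolysaccharide (LPS), a cell wall component of bacteria that macrophages sense as a danger signal (1 µg/ml, 1 h), so no group without LPS enters the comparison. Each group had 2 libraries made with a stranded kit for poly(A) mRNA, and the dose of galectin-1, the mouse strain, age and sex, and whether the replicates are separate cultures or animals are not stated in the labels. The p-values therefore cover no more than the spread of these replicates, which may be technical.

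In the p38 cascade, MAP kinase kinases phosphorylate the p38 MAP kinases, which in turn activate the kinases MK2 and MK3, encoded by Mapkapk2 and Mapkapk3. MK2 and MK3 phosphorylate tristetraprolin, the product of Zfp36, and the phosphorylated protein promotes decay of cytokine mRNAs less well; unphosphorylated tristetraprolin binds AU-rich elements in their 3′ untranslated regions and recruits the CCR4-NOT deadenylase. Regnase-1, the product of Zc3h12a, is an endonuclease that cuts stem-loops in a partly different set of inflammatory mRNAs. In macrophages this system sets how long the transcripts of LPS-induced cytokines persist.

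With galectin-1, transcripts at 3 levels of this system were higher: Map2k3, a kinase above p38, Mapkapk3, a kinase below it, and Zfp36. These calls depended on the processing, as given below. Mapk14, encoding p38 alpha, had a difference of -0.11 and did not pass. Map2k3 averaged 51.1 ± 1.98 FPKM with galectin-1 and 39.9 ± 0.442 FPKM with vehicle (SD, n = 2 per group, as for every mean below), Mapkapk3 averaged 42.6 ± 0.104 and 34.7 ± 0.654 FPKM, and Zfp36 averaged 806 ± 5.05 and 698 ± 9.89 FPKM. FPKM are fragment numbers divided by the length of the transcript and by the size of the library. Of the 10 members, 9 reached the minimum of a mean of 1 FPKM over the 4 libraries and were tested; 3 were higher at a Benjamini-Hochberg adjusted p under 0.05 in limma, 0 were lower and 6 did not pass. The background share of calls among the 9380 tested genes was 1.19% in either direction, 0.608% higher and 0.586% lower, with 57 genes higher and 55 lower (24 and 47 after quantile normalization). An unadjusted p under 0.05 was found for 4 of the 9 members, where the share over all tested genes was 23.2%, and the median difference was 0.11 for the 9 members and 0.0024 for all tested genes. Differences are given as log2 of (FPKM + 1), galectin-1 minus vehicle, which understates the change of low genes.

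**Figure D1:**
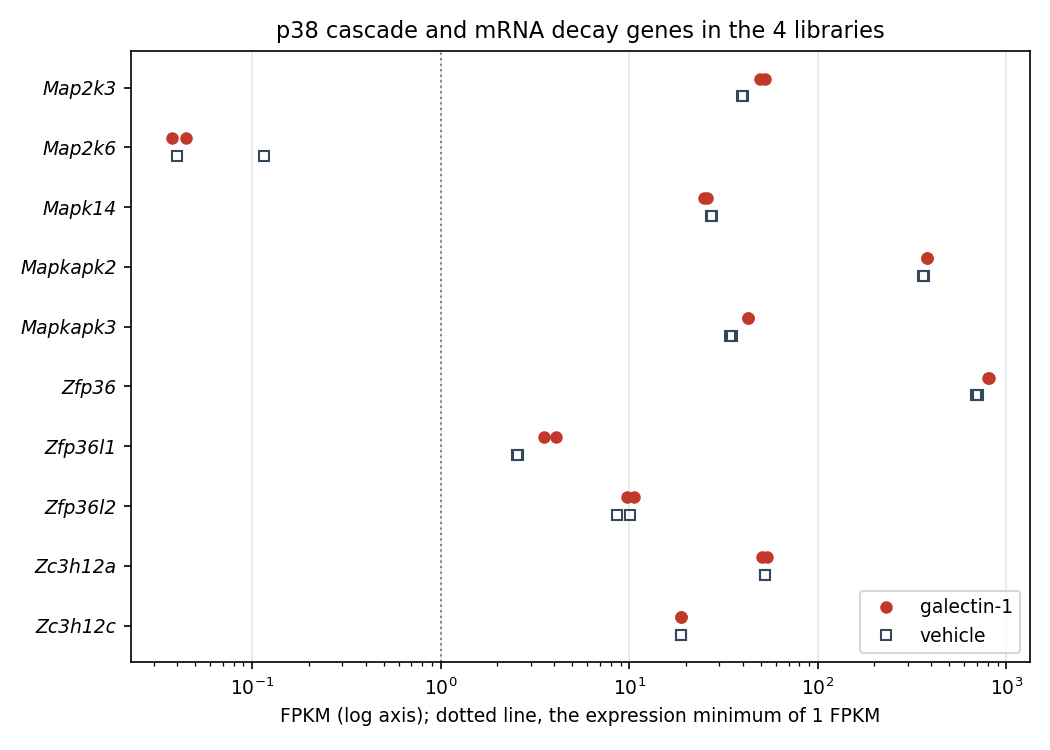
FPKM on a log axis (x) of each of the 10 members (y) in the 2 galectin-1 libraries (filled circles, upper row of each gene) and the 2 vehicle libraries (open squares, lower row). Both galectin-1 libraries lie above both vehicle libraries for Map2k3, Mapkapk2, Mapkapk3, Zfp36 and Zfp36l1, and below them for Mapk14. Groups were without overlap, in either direction, for 55.4% of all tested genes. Zc3h12a and Zc3h12c lie at nearly the same level in all 4, and Map2k6 lies far under the dotted line at 1 FPKM.

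The AU-rich elements that tristetraprolin reads are shown first, because members of its own family carry one. The nonamer UUAUUUAUU is the best described binding element of the Zfp36 family. In the annotated 3′ untranslated region of the transcript with the longest coding sequence (GENCODE M21, build GRCm38), it occurred once in each of Zfp36, Zfp36l1 and Zfp36l2 and in none of the other 7 members. Among 20571 genes with such a region 6.93% held it. Each window below has 29 bases, 5′ to 3′, with complete nonamers in capitals.

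Zfp36: uaugacgacuUUAUUUAUUguauuaagau
Zfp36l1: aacuguuggaUUAUUUAUUuuagaaauuc
Zfp36l2: acuauuuaacUUAUUUAUUaucuugugaa
Tnf: uuugcacuuaUUAUUUAUUAUUUAUUuau
Cxcl2: gagaguucacUUAUUUAUUuaucuaugua
Ptgs2: cugaccauauUUAUUUAUUuaugugaaga

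The windows lie on the minus strand at chr7:28376951-28376979 for Zfp36, chr12:80108167-80108195 for Zfp36l1, chr17:84184914-84184942 for Zfp36l2 and chr17:35199689-35199717 for Tnf, and on the plus strand at chr5:90905316-90905344 for Cxcl2 and chr1:150105790-150105818 for Ptgs2. Tnf, Cxcl2 and Ptgs2 are shown as cytokine, chemokine and cyclooxygenase transcripts known to be bound by tristetraprolin. The region held 5 nonamers in Tnf, some of which overlap, 4 in Cxcl2 and 1 in Ptgs2. A match is a description of the letters and not a measured binding site.

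Map2k3 and Map2k6 encode the kinases, MKK3 and MKK6, that phosphorylate p38. Map2k3 (chr11:60932033-60952811, plus strand, GRCm38) had 49.7 and 52.5 FPKM in the galectin-1 libraries, against 39.6 and 40.2 FPKM in the vehicle libraries. Both galectin-1 libraries lay above both vehicle libraries, as was the case in either direction for 55.4% of all tested genes. Map2k3 rose by 0.35 (standard error 0.04, 95% interval 0.24 to 0.45, adjusted p = 0.0411 in limma), a ratio of 1.28 between the means. The intervals here and below are those of single genes, without adjustment for the number of genes.

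Map2k6 (chr11:110399122-110525522, plus strand) was near the lower limit of the data and was not tested. It had 0.0376 and 0.0444 FPKM with galectin-1, against 0.116 and 0.0400 FPKM with vehicle, so the groups overlapped. Scaled by the relative depth of the libraries, these values stood in a ratio of 1 to 1 to 3 to 1, which is what 3 fragments in vehicle replicate 1 and 1 fragment in each other library would give; the absolute number of fragments is unknown. Map2k3 thus made up 99.9% of the summed FPKM of the pair in both galectin-1 libraries and 99.7% and 99.9% in the vehicle libraries.

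Mapk14, encoding p38 alpha (chr17:28691329-28748406, plus strand), had 25.9 and 25.03 FPKM with galectin-1, against 27.3 and 27.7 FPKM with vehicle. The groups did not overlap, with galectin-1 the lower, and the difference of -0.11 (standard error 0.04, 95% interval -0.21 to 0.0027) did not pass (limma, adjusted p = 0.224). Another coding gene is annotated on the same strand within the bounds of Mapk14, and how reads of overlapping genes were divided is not stated in the labels. Map2k3 and Mapk14 stood in a ratio of 1.92 and 2.10 with galectin-1, against 1.45 in each vehicle library.

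Mapkapk2, whose product MK2 is the main p38-activated kinase acting on tristetraprolin, was the more abundant of its pair. Its values (chr1:131053700-131097826, minus strand) were 379.6 and 382 FPKM with galectin-1, against 362 and 366 FPKM with vehicle. The groups did not overlap, and the difference was 0.06 (standard error 0.03, 95% interval -0.0015 to 0.13, adjusted p = 0.223 in limma), so it was not beyond the threshold. Mapkapk3, encoding the related kinase MK3 (chr9:107254927-107289877, minus strand), had 42.5 and 42.7 FPKM with galectin-1, against 34.2 and 35.1 FPKM with vehicle. Mapkapk3 rose by 0.29 (standard error 0.04, 95% interval 0.19 to 0.39, limma adjusted p = 0.0446), a ratio of 1.23 between the means, with no overlap between the groups. Mapkapk3 made up 10.1 ± 0.0137% of the summed FPKM of the pair with galectin-1 and 8.69 ± 0.0997% with vehicle. Mapkapk2 thus remained 8.92 and 8.94 times as high as Mapkapk3 with galectin-1, against 10.6 and 10.4 times with vehicle.

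**Figure D2:**
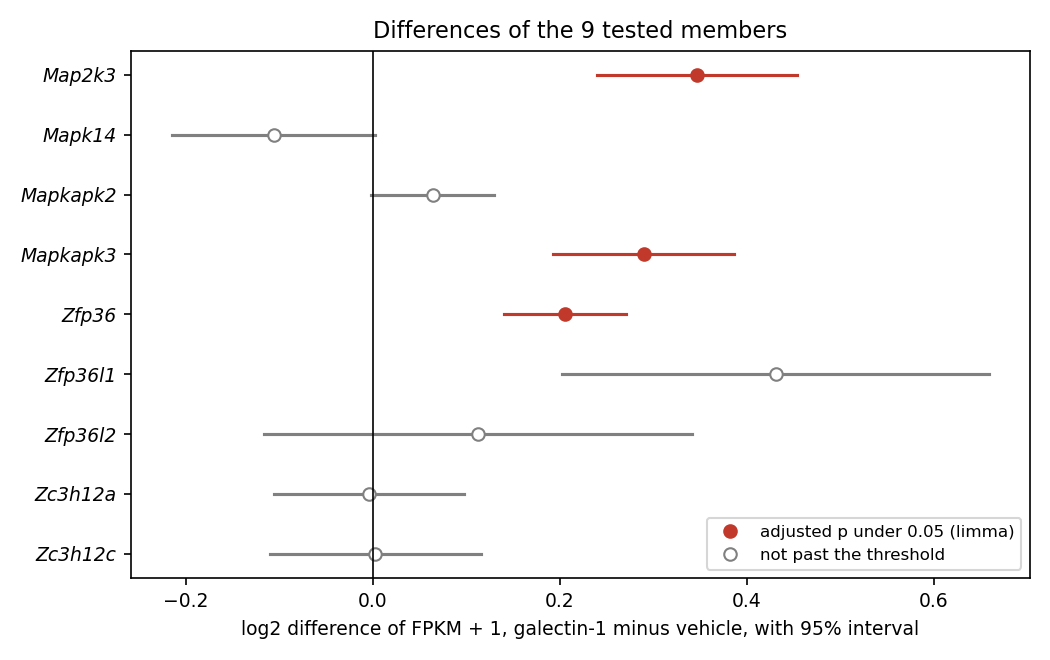
Difference of log2(FPKM + 1), galectin-1 minus vehicle (x), for the 9 tested members (y), as points with 95% intervals from limma. Filled points, Map2k3, Mapkapk3 and Zfp36, have an adjusted p under 0.05; Zfp36l1 has the highest value, 0.43, and an interval of 0.20 to 0.66, and the points of Zc3h12a and Zc3h12c lie at 0.

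Zfp36 was the most abundant member. It had 809 and 802 FPKM in the galectin-1 libraries, against 691 and 705 FPKM in the vehicle libraries, and its mean was above that of 98.7% of tested genes. Both galectin-1 values lay above both vehicle values. Zfp36 rose by 0.21 (standard error 0.03, 95% interval 0.14 to 0.27, limma adjusted p = 0.0432), a ratio of 1.15 between the means. The gene (chr7:28376784-28380253, minus strand) overlaps the annotated antisense gene Gm44710, and whether the authors' counting used strand is not stated in the labels, so reads of the pair cannot be told apart.

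Zfp36l1 and Zfp36l2 encode paralogs of tristetraprolin that bind the same kind of element. Zfp36l1 (chr12:80107754-80113013, minus strand) had 3.52 and 4.07 FPKM with galectin-1, against 2.56 and 2.54 FPKM with vehicle. The groups did not overlap; the difference of 0.43 (standard error 0.09, 95% interval 0.20 to 0.66) was the highest among the members, a ratio of 1.49 between the means, and it did not pass the threshold (limma, adjusted p = 0.0845). A processed pseudogene, Zfp36l1-ps, and a long non-coding RNA gene on the opposite strand could share reads with Zfp36l1, so its level is uncertain. Zfp36l2 (chr17:84183931-84187947, minus strand) had 10.7 and 9.70 FPKM with galectin-1, against 10.2 and 8.57 FPKM with vehicle. These groups overlapped, and the difference was 0.11 (standard error 0.09, 95% interval -0.12 to 0.34, adjusted p = 0.510 in limma), with values from 0.0012 to 0.22 when 1 library at a time was left out. It too is overlapped by an antisense gene.

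Within the family, Zfp36 held 98.3% and 98.3% of the summed FPKM with galectin-1, against 98.2% and 98.4% with vehicle. The mean share of Zfp36 thus differed between the groups by less than the spread between the vehicle libraries. This share says little about the 2 low paralogs. Zfp36 stood 230 and 197 times as high as Zfp36l1 with galectin-1, against 270 and 278 times with vehicle. In the library with the smallest gap, Zfp36 stood 68.0 times as high as Zfp36l2.

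The promoter of Zfp36 is printed because this gene is known as an immediate-early gene and was among the 3 members called higher. The 250 bases before its RefSeq start (GRCm38.p6, chr7:28379229-28379478, minus strand, 5′ to 3′) are given with the match to the serum response element in capitals. This window lies wholly within the GENCODE M21 bounds of the gene (chr7:28376784-28380253), so the annotations differ in how far upstream the gene reaches.

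Zfp36: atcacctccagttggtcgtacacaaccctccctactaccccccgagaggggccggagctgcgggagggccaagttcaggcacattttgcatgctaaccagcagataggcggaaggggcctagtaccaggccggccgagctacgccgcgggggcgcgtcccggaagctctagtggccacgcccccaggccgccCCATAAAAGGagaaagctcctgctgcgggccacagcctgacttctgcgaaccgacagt

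RefSeq windows were matched for 9 of the 10 members, all but Zfp36l2, and each was searched on both strands over the 250 bases before its first listed start. The serum response element, named for its binding by serum response factor, matched once in Zfp36, at 58 to 49 bases before the start, and in none of the other 8; it matched in 1.47% of 32851 RefSeq windows of this length. A GC box (GGGCGG), which matched in 32.7% of windows, overlaps it in Zfp36 by its last base and occurred 3 times in Map2k3, 5 times in Zc3h12a, once each in Mapk14 and Zc3h12c, and not in the other 4 windows, that of Mapkapk3 among them. The NF-kB motif matched in Zc3h12c only (7.25% of windows) and AP-1 (TGANTCA) in Map2k6 and Zfp36l1 (6.75%). No member held a match to CRE (TGACGTCA, 1.55%) or C/EBP (TTGCNNAA, 9.56%). The 3 members called higher shared no match to these motifs in the windows searched.

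Zc3h12a and Zc3h12c encode regnase-1 and its relative regnase-3. Zc3h12a (chr4:125118423-125127840, minus strand) had 50.8 and 53.5 FPKM with galectin-1, against 52.3 and 52.3 FPKM with vehicle. Both vehicle values lay between the galectin-1 values, and the difference was -0.0039 (standard error 0.04, 95% interval -0.11 to 0.10, limma adjusted p = 0.967), with a sign that changed without galectin-1 replicate 1 (0.03). Zc3h12c (chr9:52111344-52168572, minus strand) had 18.8 and 18.9 FPKM with galectin-1, against 18.7 and 18.9 FPKM with vehicle. Its groups overlapped and its difference was 0.0029 (standard error 0.05, 95% interval -0.11 to 0.12, limma adjusted p = 0.978); the sign was negative after quantile normalization and median ratio scaling. For both genes the interval leaves out a rise as large as the fitted 0.21 of Zfp36. Zc3h12a stood 2.70 and 2.83 times as high as Zc3h12c with galectin-1, against 2.79 and 2.77 times with vehicle.

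FPKM is scaled to length, so the levels of the members can be ordered within a library. In every library Zfp36 came first, Mapkapk2 next, and Mapk14, Zc3h12c, Zfp36l2, Zfp36l1 and Map2k6 followed below the other members in this order. Between them stood Zc3h12a, Map2k3 and Mapkapk3. With vehicle these 3 were separate, at 52.3, 39.9 and 34.7 FPKM on average. With galectin-1 Zc3h12a (50.8 and 53.5 FPKM) and Map2k3 (49.7 and 52.5 FPKM) overlapped between libraries; within each of the 4 libraries Zc3h12a was the higher of the pair, by a small margin with galectin-1. Mapkapk3 lay below both.

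The calls of Map2k3, Mapkapk3 and Zfp36 each rested on having all 4 libraries. Leaving out any 1 of them left differences of 0.31 to 0.39 for Map2k3, 0.27 to 0.31 for Mapkapk3 and 0.19 to 0.22 for Zfp36, with adjusted p from 0.149 to 0.227 in limma, so that 0 of 3 passed in each of these 4 fits. Quantile normalization ended the 3 calls as well, with adjusted p of 0.0551 for Map2k3 and Mapkapk3 and 0.106 for Zfp36. The size of the difference of Zfp36 was then 0.14.

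**Figure D3:**
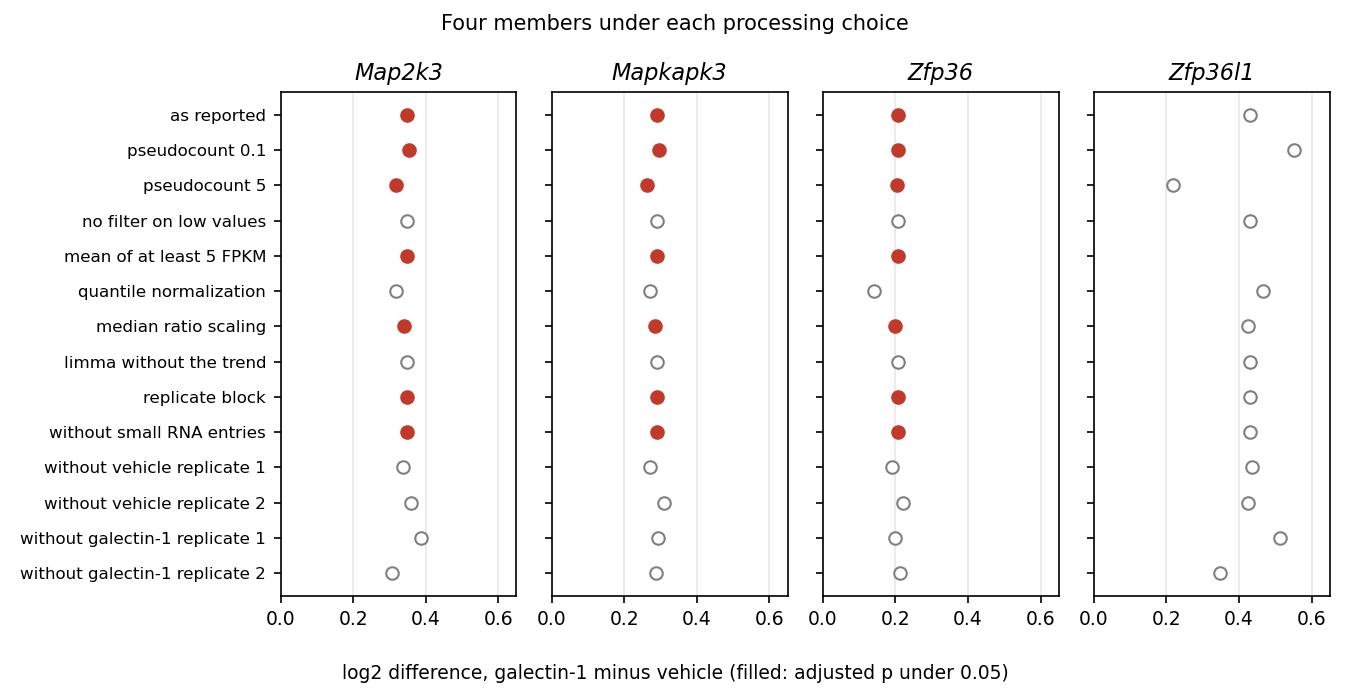
Difference of log2 values, galectin-1 minus vehicle (x), for Map2k3, Mapkapk3, Zfp36 and Zfp36l1 (panels) as reported and under 13 other processing choices (y). Filled points have an adjusted p under 0.05; every point is above 0, Zfp36l1 is not past the threshold in any of the fits that tested it, and each of the other genes passes in 6 of the 13.

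The other genes of these pathways were read from 9 lists of 105 genes, of which 98 were tested; the lists were chosen with earlier results of these libraries known. None of the 98 passed in limma (0 higher, 0 lower, with 22 at an unadjusted p under 0.05, a share that was 23.2% over all tested genes). Their median difference was 0.03, beside 0.0024 for all tested genes. Positive differences were found for 59 of 98, beside 50.7% of all tested genes. Their groups did not overlap for 62 of 98, beside the 55.4% of all tested genes.

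Above p38, 17 of 18 kinases, adaptors and activators were tested, 9 with positive and 8 with negative differences. Tab2, an adaptor of the kinase TAK1, had 156 and 158 FPKM with galectin-1, against 143 and 145 FPKM with vehicle (0.12, limma adjusted p = 0.0995). Tab1, another TAK1 partner that can also activate p38 directly, had 1.49 and 1.48 FPKM with galectin-1, against 2.35 and 2.04 FPKM with vehicle (-0.36, adjusted p = 0.120 in limma). Of the other p38 isoforms, Mapk11, encoding p38 beta, had 3.03 and 4.02 FPKM with galectin-1, against 5.28 and 5.21 FPKM with vehicle (-0.47, limma adjusted p = 0.104), and Mapk12 and Mapk13 stayed under 1 FPKM. Mapk14 was thus the p38 gene with the highest level in each library. Of 6 listed phosphatases of p38, 5 were tested and 0 passed. Their median difference was 0.07, with 4 positive and 1 negative, beside 50.7% positive over all tested genes. Dusp1, encoding a phosphatase that switches p38 off, had 141 and 148 FPKM with galectin-1, against 159 and 161 FPKM with vehicle (-0.14, limma adjusted p = 0.103). Ppm1a had 28.4 and 27.6 FPKM with galectin-1, against 25.2 and 24.9 FPKM with vehicle (0.15, limma adjusted p = 0.122). Of 11 other kinases and transcription factors under p38, Creb1, encoding a factor phosphorylated by the p38-activated kinases MSK1 and MSK2, had the smallest p, with 7.48 and 6.77 FPKM with galectin-1, against 5.54 and 5.64 FPKM with vehicle (0.30, limma adjusted p = 0.103).

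**Figure D4:**
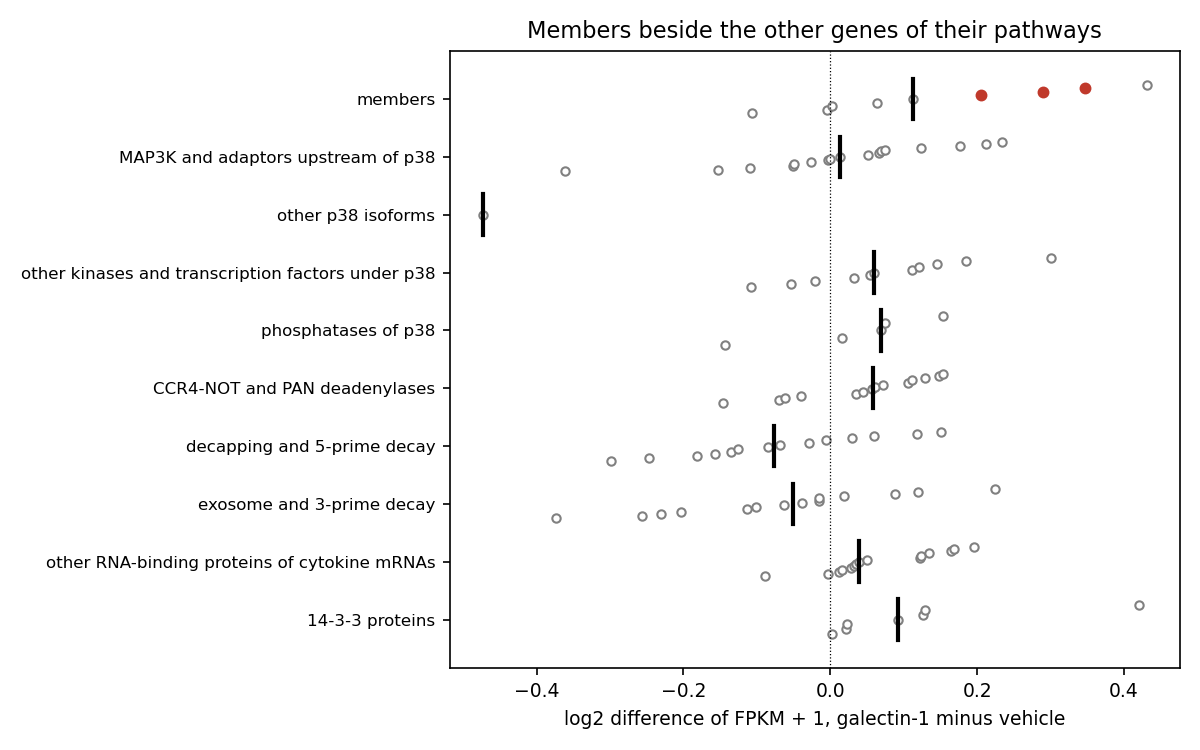
Differences of log2(FPKM + 1), galectin-1 minus vehicle (x), of the 9 tested members and of the tested genes of 9 pathway lists (y). Each point is a gene, black bars are medians, filled points have an adjusted p under 0.05; no gene of the 9 lists is filled, and the medians of the lists with more than 1 tested gene lie between -0.08 and 0.09.

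The machinery that carries out the decay was measured at lower levels than Zfp36 itself. All 14 deadenylase genes were tested and none passed; their median was 0.06. Cnot1, the scaffold of the CCR4-NOT complex, had 18.7 and 18.2 FPKM with galectin-1, against 17.1 and 17.1 FPKM with vehicle (0.11, limma adjusted p = 0.255). Over all tested genes 50.7% of differences were positive. Of 14 tested genes of decapping and 5′ decay, 10 had negative differences, with a median of -0.08. Dcp2, the decapping enzyme, had 47.9 and 47.8 FPKM with galectin-1, against 43.3 and 44.7 FPKM with vehicle (0.12, limma adjusted p = 0.151). Of 14 genes of the exosome and 3′ decay, 10 had negative differences, with a median of -0.05. Its subunit gene Exosc9 had 15.7 and 14.9 FPKM with galectin-1, against 17.7 and 17.9 FPKM with vehicle (-0.20, limma adjusted p = 0.107).

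Further proteins that bind or handle cytokine mRNAs or their regulators gave no call. Over all tested genes 50.7% of differences were positive. Of 15 tested RNA-binding proteins and regulators, 13 had positive differences, with a median of 0.04. Pabpc1, which coats the poly(A) tail, had 327 and 324 FPKM with galectin-1, against 299 and 298 FPKM with vehicle (0.12, limma adjusted p = 0.0861). Malt1, a protease that cleaves regnase-1, had 145 and 141 FPKM with galectin-1, against 151 and 153 FPKM with vehicle (-0.09, limma adjusted p = 0.179). The 7 genes of the 14-3-3 proteins, which hold phosphorylated tristetraprolin, all had positive differences, from 0.0021 to 0.42 with a median of 0.09. Among them Ywhae had 201 and 208 FPKM with galectin-1, against 185 and 190 FPKM with vehicle (0.13, limma adjusted p = 0.113). The value of 0.42 was that of Sfn, a low gene, with 2.39 and 2.82 FPKM with galectin-1, against 1.79 and 1.58 FPKM with vehicle (limma adjusted p = 0.106). The next highest was 0.13, that of Ywhab.

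Transcripts known as targets of these decay proteins moved in both directions. Of 12 listed targets of tristetraprolin, Zfp36 itself included, 10 were tested, 3 were higher, 1 was lower and 6 did not pass; of 8 listed targets of regnase-1, Zc3h12a included, 7 were tested, 0 were higher, 1 was lower and 6 did not pass. Over all tested genes 0.608% were called higher and 0.586% lower. The median difference was 0.21 for the first list and -0.0039 for the second, beside 0.0024 for all tested genes. Both medians include a member: that of the second list is the value of Zc3h12a itself, and Zfp36 enters the first. The lists share Il6 and Ptgs2. Besides Zfp36, the higher ones were Cxcl2 and Il10. Cxcl2, a neutrophil attractant, had 243 and 259 FPKM with galectin-1, against 196 and 185 FPKM with vehicle (0.39, limma adjusted p = 0.0372). Il10, the anti-inflammatory cytokine, had 79.6 and 83.2 FPKM with galectin-1, against 62.3 and 65.1 FPKM with vehicle (0.35, limma adjusted p = 0.0374). The lower ones were Il1b, with 261 and 266 FPKM with galectin-1, against 371 and 373 FPKM with vehicle (-0.50, limma adjusted p = 0.00612), and Il12b, with 12.5 and 14.5 FPKM with galectin-1, against 21.1 and 20.5 FPKM with vehicle (-0.59, limma adjusted p = 0.0432). The calls of Cxcl2, Il10 and Il12b were lost without any 1 library (adjusted p from 0.0956 to 0.221), that of Il1b without vehicle replicate 2 (adjusted p = 0.0553), and that of Cxcl2 also after quantile normalization. With no filter on low values (adjusted p from 0.0637 to 0.137) and without the variance trend (adjusted p = 0.138) none of these 4 passed.

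Tnf, the transcript with 5 nonamers, had 803 and 823 FPKM with galectin-1, against 837 and 825 FPKM with vehicle. The difference was -0.03 (standard error 0.03, 95% interval -0.10 to 0.03, limma adjusted p = 0.520). Il6, a target of both proteins, had 263 and 255 FPKM with galectin-1, against 295 and 293 FPKM with vehicle (-0.18, limma adjusted p = 0.0562, 0.0440 with a minimum mean of 5 FPKM, 0.0420 with the replicate block and 0.0280 without small RNA entries). Ptgs2, encoding the inducible cyclooxygenase, had 270.1 and 269 FPKM with galectin-1, against 239 and 243 FPKM with vehicle (0.16, limma adjusted p = 0.0614, 0.0497 with a minimum mean of 5 FPKM and 0.0361 without small RNA entries). Lcn2, encoding the siderophore-binding lipocalin, had 22.8 and 24.3 FPKM with galectin-1, against 29.2 and 33.2 FPKM with vehicle (-0.39, limma adjusted p = 0.0650, 0.0256 with the replicate block and 0.0297 without small RNA entries). Cxcl1, Ier3 and Ccl3, listed for tristetraprolin, had differences of 0.24, 0.24 and 0.21 (limma adjusted p = 0.0853, 0.0766 and 0.139). Without small RNA entries, limma gave Cxcl1 and Ier3 adjusted p of 0.0474 and 0.0460. Tfrc and Nfkbiz, listed for regnase-1, had 0.19 and 0.08 (limma adjusted p = 0.177 and 0.187). Of 10 tested tristetraprolin targets, Zfp36 included, 7 had positive differences, beside 50.7% of all tested genes. Steady-state FPKM holds synthesis and decay together, so half-lives were not measured.

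**Figure D5:**
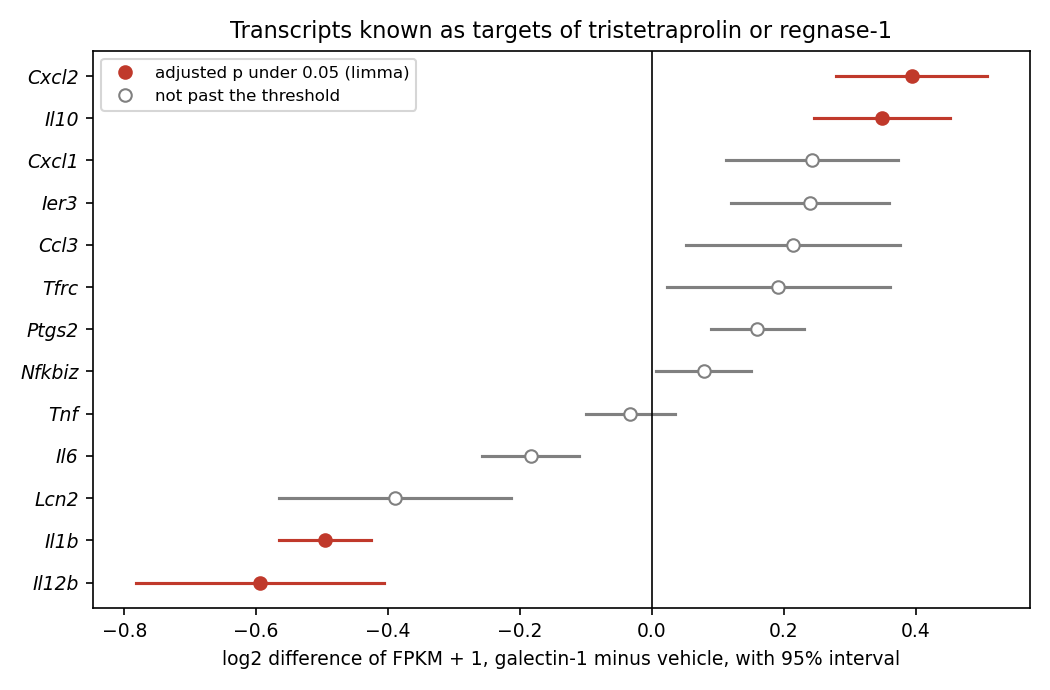
Difference of log2(FPKM + 1), galectin-1 minus vehicle (x), with 95% intervals for 13 tested transcripts known as targets of tristetraprolin or regnase-1, members left out (y). Filled points have an adjusted p under 0.05: Cxcl2 and Il10 are higher and Il1b and Il12b lower, and Tnf lies at -0.03.

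Of 11 listed tristetraprolin targets other than Zfp36, 6 held the nonamer in the 3′ untranslated region (Tnf, Csf2, Cxcl1, Cxcl2, Il23a and Ptgs2). All 11 held the core heptamer of the nonamer, UAUUUAU, which occurred in 25.5% of all such regions. The list is of transcripts already known as targets, so these matches are a description and no test. Il10 and Il1b, which were called in opposite directions, held 4 and 3 heptamers and no nonamer. Among the called targets other than Zfp36, Cxcl2 was the one with the nonamer.

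The identity of the cells and the other cell types were read from marker lists. All 8 macrophage markers were expressed, with a summed level of 10120 to 10136 FPKM with galectin-1 and 9342 to 9346 FPKM with vehicle. Of these 8 differences 7 were positive, where the share over all tested genes was 50.7%, and 0 passed. Lyz2, with means of 6246 FPKM with galectin-1 and 5701 FPKM with vehicle, made up most of the macrophage sum. Summed fibroblast markers lay at 11.0 to 12.6 FPKM with galectin-1 and at 9.72 to 10.3 FPKM with vehicle (4 of 7 tested, 0 passed). Summed dendritic cell markers lay at 17.1 to 17.8 FPKM with galectin-1 and at 22.6 to 22.7 FPKM with vehicle (3 of 7 tested), and Fscn1 fell by 0.47 (limma adjusted p = 0.0425, from 0.172 to 0.221 without any 1 library, 0.130 with no filter and 0.138 without the trend), while Flt3, Zbtb46 and Cd209a stayed under the minimum of 1 FPKM. The T cell markers Cd3e, Cd3g and Cd2 were listed at 0 in all 4 libraries. Of 5 neutrophil markers found, S100a8 alone was tested, at 2.28 and 1.34 FPKM with galectin-1, against 2.73 and 0.806 FPKM with vehicle (0.09, limma adjusted p = 0.902), and Elane was listed at 0 throughout; their sums were 1.38 to 2.31 FPKM with galectin-1 and 1.34 to 2.92 FPKM with vehicle. The macrophage and fibroblast sums were higher with galectin-1, as were Map2k3, Mapkapk3 and Zfp36, and the dendritic cell sum was lower. The part of these sums in the calls was not tested. In bulk RNA, a change in the number of cells of a type and a change in RNA per cell cannot be told apart.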

How the data were processed

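RNA sequencing of 4 libraries was deposited as 1 FPKM value per gene symbol and library. The authors made the FPKM values; per the submitters' processing notes, the tools were Cufflinks 2.2.1, SAMtools 0.1.19, Bowtie2 2.2.3 and TopHat2 2.0.13 (roles not named) and the build was mm10. Not given in the sources used here: the annotation, read filters, use of strand, multi-mapped reads and any scaling across libraries. FPKM depends on the transcript length used and splits reads between paralogs.

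Groups and replicate numbers came from the sample titles. Values were used as log2(FPKM + 1) for the 9380 genes averaging 1 FPKM or more, and compared with limma 3.58.1 in R 4.3.3 (variance trend, 2 residual and 3.89 prior degrees of freedom, 2-sided, Benjamini-Hochberg adjusted p under 0.05 over all 9380 genes). A permutation test of 2 against 2 cannot go below 0.333. Depths relative to vehicle replicate 1, read from the value steps of genes under 0.3 FPKM, were 0.969 for vehicle replicate 2, 1.03 for galectin-1 replicate 1 and 0.872 for galectin-1 replicate 2; the absolute depth is unknown, so no counting intervals are given. Replicates correlated at 0.988 (galectin-1) and 0.983 (vehicle), and no libraries were identical. Of 158 listed symbols 157 were found, directly or as RefSeq synonyms.

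The members and lists were chosen with earlier results of these data known. The rule for named genes allowed all members, any tested target, and from the other lists every called gene and the 3 of smallest p; not every gene it allows is printed. Alternatives were the pseudocount, the filter, quantile and median ratio scaling, no variance trend, the replicate block and leaving out each library; a fit without small RNA entries was added after seeing the data. The limma procedure was tested on 20 simulated data sets, with 200 of 9380 genes changed and changes of 0.25, 0.5 and 1. It recovered 29.5%, 79.0% and 99.3% of the changed genes, with a false percentage of 6.14%. The share of changed genes in the real libraries is unknown, so recovery there may differ. A gene that did not pass was therefore not shown to be unchanged. Sequences came from RefSeq (GRCm38.p6) and GENCODE M21.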

Additional observations from a re-analysis of the deposited data

How the results depend on the processing

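The differences of Map2k3, Mapkapk3 and Zfp36 stayed positive under all 13 alternatives and passed in 6 of them. With no filter they were 0.35, 0.29 and 0.21 (adjusted p 0.130, 0.130 and 0.137 in limma), the same values with adjusted p of 0.138, 0.138 and 0.155 without the variance trend, and 0.32, 0.27 and 0.14 after quantile normalization, so 0 members were called in each. Leaving out 1 library gave 0.31 to 0.39, 0.27 to 0.31 and 0.19 to 0.22, with 0 members called in each. The other members passed under no alternative that tested them. Zc3h12c had -0.015 after quantile normalization and -0.0032 after median ratio scaling, and -0.0035 to 0.0092 with 1 library left out, where Zc3h12a had -0.040 to 0.033. Shares within families differed, with 1 library left out, by -0.155 to 0.102 percentage points for Zfp36, 1.30 to 1.44 for Mapkapk3, 0.0191 to 0.212 for Map2k3 and -0.546 to 0.352 for Zc3h12a.

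Over all genes, 57 were higher and 55 lower as reported. The counts were 1 and 2 with no filter, 127 and 99 with a minimum mean of 5 FPKM, 24 and 47 after quantile normalization, 1 and 1 without the trend, and 191 and 178 without small RNA entries. Leaving out 1 library gave 4 to 9 higher and 3 to 12 lower. The cause of these shifts was not tested. The fits without 1 library also had fewer samples. With the replicate number as a block, 123 genes were higher and 117 lower and 3 members were called higher; the titles give only the number, and same-numbered libraries deviated together with a correlation of 0.0114 over genes, so the numbers were not taken as pairs. None of the pathway list genes passed under any alternative.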

Other observations

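Among 1496 other tested genes averaging 50 FPKM or more, the 5 whose log2 values lay closest to those of Zfp36 over the 4 libraries, each centred on its mean, were Vdac2, Ddx3x, Npy, Crk and Socs3, at Euclidean distances of 0.0106 to 0.0211. Vdac2, encoding a mitochondrial channel, had 122 and 121 FPKM with galectin-1, against 103 and 105 FPKM with vehicle. Npy, encoding neuropeptide Y, had 248 and 249.6 FPKM with galectin-1, against 214 and 218 FPKM with vehicle. Socs3, encoding a feedback inhibitor of cytokine receptors, had 731 and 737 FPKM with galectin-1, against 635 and 647 FPKM with vehicle. The likeness is a description over 4 libraries and has no test.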
